A study of Mus musculus with 12 samples.

Results

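The transcripts described here encode 10 enzymes and carriers that remove superoxide and hydrogen peroxide. They are the superoxide dismutases Sod1 and Sod2, catalase (Cat), the peroxiredoxins Prdx1, Prdx2 and Prdx5, glutathione peroxidase 1 (Gpx1), glutathione reductase (Gsr), thioredoxin 1 (Txn1) and thioredoxin reductase 1 (Txnrd1). They were taken by gene name from the tables of all libraries, 10 of 31272 gene names, by a rule of names that used no measured value. The data are RNA-seq of bone marrow cells sorted as hematopoietic stem cells (HSCs) from wild-type mice, in 12 libraries. Ctrl had no exposure in its label, IR was ionizing radiation, and Ab_IR and L_IR were further irradiated groups whose prefixes are not spelled out in the labels and are used as given. Each group held 3 libraries, and all irradiated cells were taken 3 days after exposure. The study used C57BL/6 mice, a sublethal whole-body gamma dose and a surface gate of Lineage-, Sca-1+, c-Kit+, Flt3- and CD34- cells. Whether animals were pooled is not stated, and nothing in the labels says that the libraries of a group came from separate animals, so p-values here measure the spread between these libraries only.

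Superoxide is turned into hydrogen peroxide by the dismutases, SOD1 in the cytosol and SOD2 in mitochondria. Hydrogen peroxide is then removed by catalase in peroxisomes, by glutathione peroxidases that spend glutathione, and by peroxiredoxins that spend thioredoxin. Glutathione reductase and thioredoxin reductase restore both carriers with electrons from NADPH. HSCs are known to be sensitive to an excess of reactive oxygen species, and ionizing radiation is a textbook source of them. Red cells are known to hold PRDX2 and catalase in very large amounts.

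Values were FPKM, a count of sequenced fragments divided by both gene length and library size, so that levels of different genes can be set side by side. Without read counts the depth is unknown. The 10 transcripts took 0.31% to 0.418% of the summed FPKM of a library. Ctrl replicate 1 differed from the rest, as 44.1% of its rows held a 0 and only 24.7% to 27.3% did elsewhere. Its level was also below the mean of Ctrl replicates 2 and 3 for short genes, with a median log2 difference of -0.293 for genes under 1 kb and 0.108 for genes over 4 kb. Nppa, a heart hormone gene, reached 51.2 to 63.9 FPKM in all IR libraries and in Ctrl replicates 2 and 3, but at most 0.26 FPKM in the remaining 7. Leaving out Ctrl replicate 1 keeps IR against Ctrl within that split, whereas the split and the difference of Ab_IR or L_IR from IR cannot be told apart. Of 9 HSC markers, 5 were under 1 FPKM in every Ctrl library and 6 in every IR library, Mecom, Hoxb5 and Fgd5 among them. Kit was at 21.28 to 25.45 FPKM in Ctrl, 6.70 to 7 in IR, 17.43 to 19.07 in Ab_IR and 17.81 to 18.00 in L_IR, and was lower in IR than in Ctrl by a log2 fold change of -1.63 (adjusted p = 3.83e-05). Ly6a, which encodes SCA-1, was at 25.9 to 41.1, 53.66 to 61.47, 35.67 to 41.23 and 45.40 to 45.76 FPKM in that order, and was higher in IR than in Ctrl by 0.75 (adjusted p = 0.0145). These markers therefore moved with the IR differences below, and their part in them was not tested. The HSC label is therefore used only as the name of the sort, and markers of other blood cells are given beside the results they touch.

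Prdx2 and Txnrd1 differed most between IR and Ctrl, in opposite directions. Prdx2 fell 2.98-fold in IR and Txnrd1 rose 2.41-fold, and both stood nearer to their Ctrl levels in Ab_IR and L_IR. Gsr rose 1.68-fold in IR and was lower again in both further groups. Genes were tested with limma on log2(FPKM + 1) and called at an adjusted p under 0.05, over all genes tested. By that rule 4 of the 10 transcripts differed between IR and Ctrl, beside 43.1% of all 12072 genes tested. Of the 10, 2 were higher, beside 17.5% of all genes, and 2 lower, beside 25.5%. With an absolute log2 fold change above 1 required as well, 2 of 10 were called beside 7.6% of all genes. In 6 of 10 the libraries of both groups did not overlap, beside 58.1% of all genes. All but the share past both thresholds were close to those of all genes. That share was larger and rests on Prdx2 and Txnrd1 alone. The set was not tested, so these counts are not read as a result about the scavenging enzymes. The median log2 fold change of the 10 was 0.10, against -0.05 over all genes tested.

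**Figure D1:**
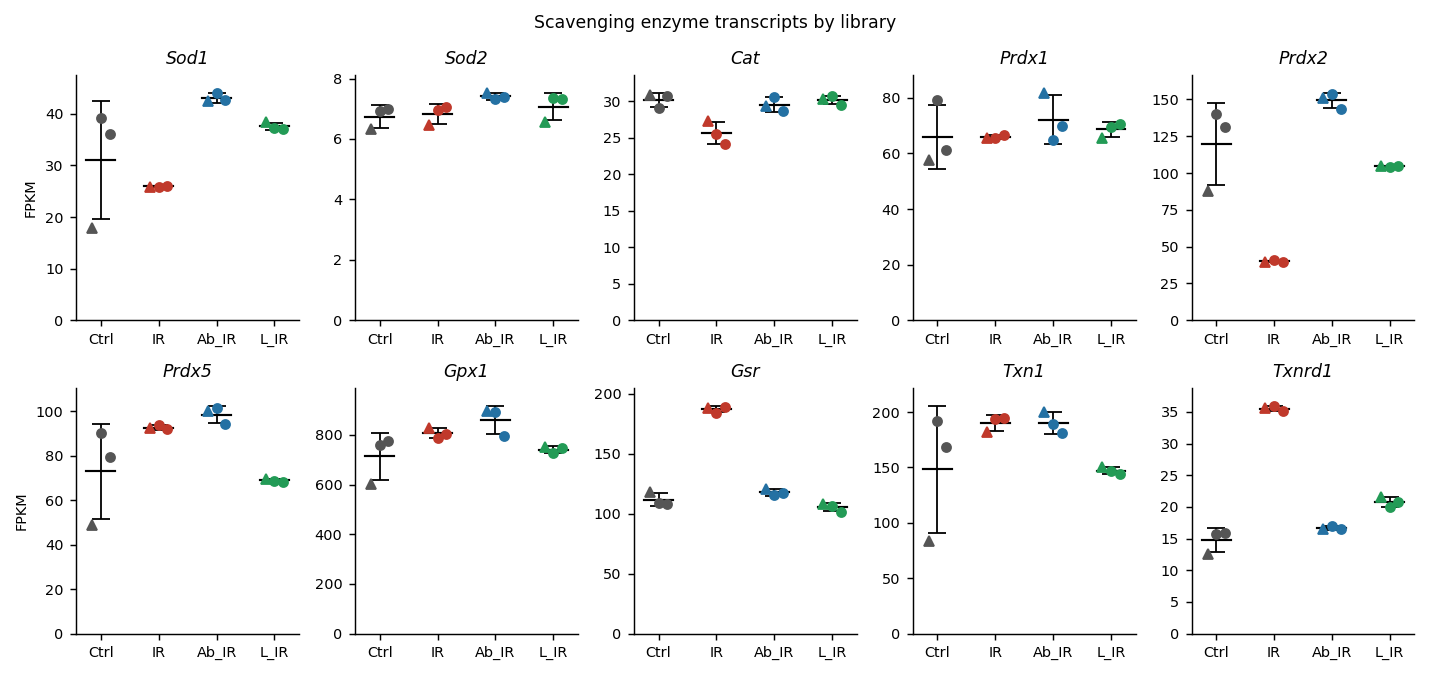
FPKM (y axis, from 0) of each of the 10 transcripts in the 4 groups (x axis), 1 point per library with replicate 1 as a triangle, the group mean as a line and the SD as a bar (n = 3). Prdx2 sits at 39.8 to 40.7 FPKM in IR and at 87.8 FPKM or more elsewhere, Gsr and Txnrd1 are highest in IR, and Ctrl replicate 1 is the lowest Ctrl library for all but Cat and Gsr.

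Levels differed widely between the transcripts. In Ctrl, Gpx1 led at 713 ± 94.9 FPKM (SD, n = 3), followed by Txn1 at 148 ± 57.2, Prdx2 at 119.7 ± 28.0 and Gsr at 112 ± 5.61. The Ctrl libraries of Txn1, Prdx2 and Gsr overlapped. Prdx5 (72.95 ± 21.4) and Prdx1 (66.0 ± 11.5) came next and overlapped. Sod1 (31.0 ± 11.5) and Cat (30.2 ± 0.967) had similar means. Sod1 was below Cat in Ctrl replicate 1 but above it in Ctrl replicates 2 and 3. Txnrd1 (14.8 ± 1.86) and Sod2 (6.74 ± 0.369) were lowest. In IR, Prdx2 (40.1 ± 0.471) stood below Prdx5 (92.7 ± 0.966) and Prdx1 (65.9 ± 0.710), and Txnrd1 (35.5 ± 0.397) stood above Cat (25.7 ± 1.52) and Sod1 (25.95 ± 0.0889).

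Sod1, the copper and zinc dismutase (GRCm38 chr16:90220754-90226329, plus strand), was listed in Ctrl replicates 1, 2 and 3 at 17.9, 39.1 and 36.1 FPKM. It was at 25.92, 25.88 and 26.05 FPKM in IR, 42.4, 44.1 and 42.7 in Ab_IR, and 38.4, 37.4 and 37.0 in L_IR. All IR libraries lay below all Ab_IR and L_IR libraries and between Ctrl replicate 1 and the other Ctrl libraries. With all Ctrl libraries the log2 fold change of IR against Ctrl was -0.17 ± 0.278 (SE; 95% interval -0.84 to 0.50; adjusted p = 0.647). Without Ctrl replicate 1, inside the Nppa split, it was -0.52 (adjusted p = 3.05e-04), so that library decides whether Sod1 passed. Sod1 was higher than in IR by 0.71 ± 0.0322 in Ab_IR (adjusted p = 2.00e-06) and by 0.52 ± 0.0246 in L_IR (adjusted p = 3.56e-06). With the Nppa split as a term over all 12 libraries, which Ctrl replicate 1 alone sets within Ctrl, these were 1.74 and 1.55. With all 12 libraries in one fit and no such term, the L_IR call was lost (adjusted p = 0.0723).

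Sod2, the manganese dismutase of mitochondria (chr17:13006846-13040063, plus strand), was at 6.32, 6.91 and 7.0 FPKM in Ctrl and 6.46, 6.97 and 7.06 in IR. It was at 7.53, 7.32 and 7.38 FPKM in Ab_IR and 6.55, 7.35 and 7.31 in L_IR. The groups overlapped except that all Ab_IR libraries lay above Ctrl and IR. No comparison of Sod2 passed the test. The 95% interval of its log2 fold change was -0.15 to 0.19 in IR against Ctrl, -0.00352 to 0.21 in Ab_IR against IR and -0.09 to 0.17 in L_IR against IR, so a change of 1 log2 unit lies outside all 3 intervals.

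Cat, which splits hydrogen peroxide into water and oxygen (chr2:103453849-103485160, minus strand), was at 30.9, 29.1 and 30.7 FPKM in Ctrl and 27.3, 25.6 and 24.2 in IR. It was at 29.3, 30.65 and 28.7 FPKM in Ab_IR and 30.3, 30.7 and 29.55 in L_IR. All IR libraries were below all others, and the other 3 groups overlapped. Cat was lower in IR than in Ctrl by a log2 fold change of -0.23 ± 0.0664 (adjusted p = 0.0332). That call held in 11 of 18 alternatives. It was lost with the replicate number as a block (adjusted p = 0.0849), with immunoglobulin genes left out (-0.10, adjusted p = 0.286) and with a lowess trend on gene length taken out (-0.17, adjusted p = 0.119). It was also lost without Ctrl replicate 3 (adjusted p = 0.0766) and without IR replicate 1 (0.0562), 2 (0.12) or 3 (0.144), and held without Ctrl replicate 1 at -0.21 (adjusted p = 0.0251). Against IR, Cat was higher by 0.20 ± 0.0509 in Ab_IR (adjusted p = 0.0105) and by 0.23 ± 0.0441 in L_IR (adjusted p = 0.00331). Over 18 alternatives the Ab_IR call held in 14 and the L_IR call in 17. With the length trend taken out, the Ab_IR difference was 0.05 (adjusted p = 0.396). With the Nppa split as a term both calls were lost. The Ab_IR one was then at 0.15 (adjusted p = 0.14) and the L_IR one at 0.18 (adjusted p = 0.0889).

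Prdx2, a cytosolic peroxiredoxin (chr8:84969587-84974834, plus strand), was at 87.8, 140.2 and 131 FPKM in Ctrl and 39.9, 40.7 and 39.8 in IR. It was at 151, 154 and 144 FPKM in Ab_IR and 105, 104 and 105 in L_IR. The IR libraries held less than any other library, Ab_IR held the most, and L_IR lay between Ctrl replicate 1 and the other Ctrl libraries. The log2 fold change of IR against Ctrl was -1.53 ± 0.173 (adjusted p = 9.32e-04), and -1.73 (adjusted p = 2.34e-06) without Ctrl replicate 1. Prdx2 was 3.72-fold higher in Ab_IR than in IR, a log2 fold change of 1.87 ± 0.0364 (adjusted p = 5.59e-08). It was 2.61-fold higher in L_IR than in IR, by 1.36 ± 0.021 on the log2 scale (adjusted p = 3.28e-08). These calls held under all 18 alternative settings tried in each of the 3 comparisons, with 2.49 in Ab_IR and 1.98 in L_IR against IR when the Nppa split was a term.

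Exons of Prdx2 share 177 bases with Rnaseh2a and 173 bases with Junb on the opposite strand. The library kit keeps strand, but whether quantification used it is not stated, and without it reads from those bases cannot be told apart. The neighbours moved in the same direction as Prdx2 but less. In IR against Ctrl, Rnaseh2a changed by -0.47 (adjusted p = 0.0171) and Junb by -0.20 (adjusted p = 0.14), beside -1.53 for Prdx2. Against IR, Rnaseh2a was higher by 0.73 in Ab_IR and 0.52 in L_IR, and Junb by 0.45 and 0.27, beside 1.87 and 1.36. Junb averaged 126 FPKM in IR, above Prdx2 at 40.1. The part of shared bases in the Prdx2 difference was not tested.

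The Prdx2 level was lowest in IR, as were the erythroid markers and those of several other blood cells. Of 12 erythroid markers, hemoglobins and heme synthesis genes among them, 11 were found and none was at 0 in a whole group. Ctrl libraries summed to 3659 to 4209 FPKM over them, IR libraries to 575 to 585, Ab_IR libraries to 3572 to 3735 and L_IR libraries to 1768 to 1822. In IR, 11 of 11 were lower than in Ctrl past both thresholds, and 11 of 11 were higher than in IR in both Ab_IR and L_IR. Past both thresholds, 7.6% of all genes differed between IR and Ctrl. By the adjusted p alone, 25.5% of all genes were lower in IR than in Ctrl. Against IR, 39.4% of all genes were higher in Ab_IR and 40.8% in L_IR. Eosinophil markers summed to 4880 to 6491 FPKM for Ctrl libraries, 411 to 420 for IR, 6975 to 7113 for Ab_IR and 2938 to 2971 for L_IR. Mast cell and basophil markers summed to 581 to 664, 206 to 214, 776 to 827 and 479 to 503 FPKM in that order, and megakaryocyte and platelet markers to 62.7 to 76.1, 15.3 to 17.8, 153 to 156 and 94.95 to 101. These 3 sums were highest in Ab_IR, as Prdx2 was, whereas the erythroid sum of Ab_IR overlapped that of Ctrl. Of the eosinophil markers 6 of 6, of the mast cell and basophil markers 5 of 5 and of the tested megakaryocyte and platelet markers 7 of 7 were lower in IR than in Ctrl and higher than in IR in both further groups, and none was at 0 in a whole group. The 3 genes whose log2(FPKM + 1) had the highest Pearson's r with Prdx2 over the 12 libraries, among 5035 genes, were Urod (0.997), Ptms (0.995) and Slc25a38 (0.993). Urod encodes an enzyme of heme synthesis and Slc25a38 a mitochondrial carrier needed for it. The libraries fall into groups and the points share them, so these r are descriptions of likeness only. In bulk RNA, fewer cells of a type and less RNA per cell cannot be told apart, and the part of RNA of any of these cells in the Prdx2 difference was not tested.

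**Figure D2:**
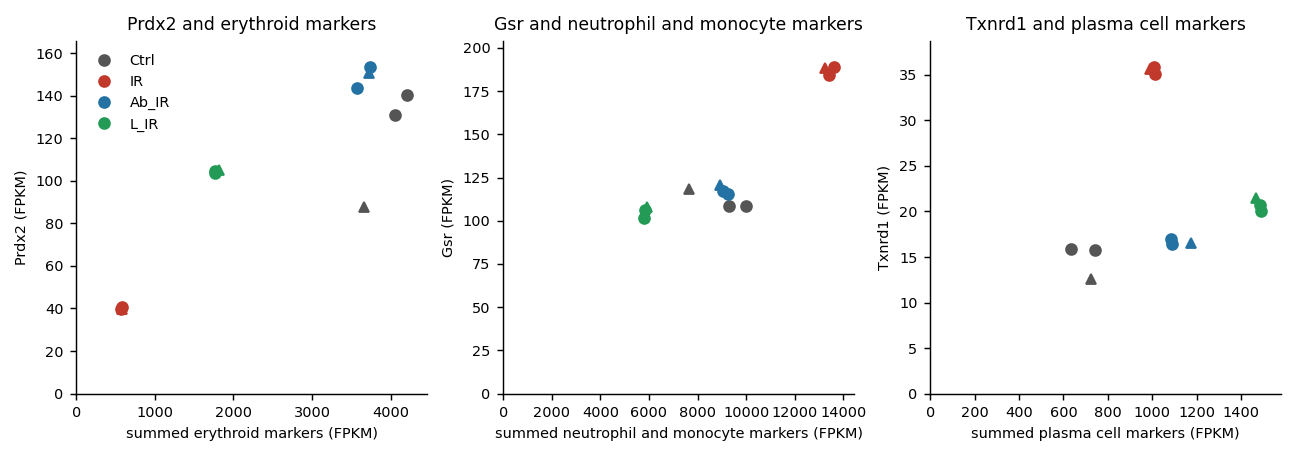
FPKM of Prdx2, Gsr and Txnrd1 (y axes) against the summed FPKM of erythroid, neutrophil and monocyte, and plasma cell markers (x axes), 1 point per library coloured by group, replicate 1 as a triangle. Prdx2 and the erythroid sum are lowest in the 3 IR libraries, Gsr and the neutrophil and monocyte sum are highest there, and Txnrd1 is highest in IR while the plasma cell sum is highest in L_IR.

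Prdx1, the other abundant cytosolic peroxiredoxin (chr4:116685544-116700822, plus strand), was at 57.75, 79.1 and 61.2 FPKM in Ctrl and 65.5, 65.5 and 66.8 in IR. It was at 81.8, 64.8 and 69.7 FPKM in Ab_IR and 65.4, 69.6 and 70.7 in L_IR. All 4 groups overlapped, and no comparison passed the test. The 95% interval of IR against Ctrl was -0.28 to 0.30, around a log2 fold change of 0.01.

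Prdx5, a peroxiredoxin of mitochondria, peroxisomes and cytosol (chr19:6906697-6910106, minus strand), was at 49.1, 90.2 and 79.6 FPKM in Ctrl and 92.3, 93.8 and 91.9 in IR. It was at 99.96, 101 and 94.1 FPKM in Ab_IR and 69.5, 68.8 and 68.3 in L_IR. L_IR lay below IR and Ab_IR in every library and inside the range of Ctrl. The log2 fold change of IR against Ctrl was 0.39 ± 0.215 (adjusted p = 0.196), which was 0.13 without Ctrl replicate 1 and 0.56 without Ctrl replicate 2. That of Ab_IR against IR was 0.09 ± 0.0378 (adjusted p = 0.0767). Prdx5 was lower in L_IR than in IR by a log2 fold change of -0.42 ± 0.0209 (adjusted p = 4.22e-06). With the Nppa split as a term over all 12 libraries that difference was 0.35 (adjusted p = 0.00468), the opposite direction. The term is set by Ctrl replicate 1 alone within the Ctrl group, where its log2 difference from the mean of the other Ctrl libraries was -0.776 for Prdx5. Exons of Prdx5 share 409 bases with Trmt112 on the other strand, which changed by 0.35 in L_IR against IR.

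Gpx1, the main cytosolic glutathione peroxidase and a selenoprotein (chr9:108338903-108340343, plus strand), was at 604, 758 and 777 FPKM in Ctrl and 826, 789 and 806 in IR. It was at 895, 890.3 and 796 FPKM in Ab_IR and 749.9, 725 and 747 in L_IR. Every IR library was above every Ctrl library and every L_IR library was below every IR and Ab_IR library. The log2 fold change of IR against Ctrl was 0.19 ± 0.113 (adjusted p = 0.231), and 0.07 (adjusted p = 0.165) without Ctrl replicate 1. Gpx1 was lower in L_IR than in IR by -0.12 ± 0.0274 (adjusted p = 0.00622), which became -0.04 (adjusted p = 0.273) with immunoglobulin genes left out before rescaling and 0.22 (adjusted p = 0.0421) with the Nppa split as a term.

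Gsr, which restores glutathione (chr8:33652523-33698163, plus strand), was at 118, 109 and 108 FPKM in Ctrl and 189, 184.5 and 189 in IR. It was at 121, 115 and 117 FPKM in Ab_IR and 108, 106 and 102 in L_IR. The IR libraries were above all others, L_IR was below Ctrl and Ab_IR in every library by a small margin, and Ctrl and Ab_IR overlapped. In IR the log2 fold change against Ctrl was 0.74 ± 0.063 (adjusted p = 2.94e-04), and 0.78 without Ctrl replicate 1. Gsr fell from IR by 0.67 on the log2 scale in Ab_IR (SE 0.0326; adjusted p = 2.84e-06) and by 0.82 in L_IR (SE 0.0287; adjusted p = 9.24e-07). All 18 alternatives left these 3 calls in place.

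Gsr is known to be abundant in granulocytes, and the summed level of neutrophil and monocyte markers was also highest in IR. All 12 summed to 7641 to 9993 FPKM for Ctrl libraries, 13242 to 13627 for IR, 8940 to 9260 for Ab_IR and 5808 to 5927 for L_IR, and none was at 0 in a whole group. The markers did not all follow their sum, since Ly6c2, Csf1r and Ccr2 had their lowest mean in IR and Elane, Prtn3 and Camp a higher mean in Ab_IR. Of these 12, 6 were higher and 2 lower in IR than in Ctrl, beside 17.5% and 25.5% of all genes. In Ab_IR, 6 were lower and 4 higher than in IR, beside 29.4% and 39.4%. In L_IR, 9 of these markers were lower and 3 higher than in IR, beside 26% and 40.8%. Their part in the Gsr difference was not tested.

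Txn1, the cytosolic thioredoxin (chr4:57943373-57956411, minus strand), was at 83.6, 192 and 169 FPKM in Ctrl and 182, 193 and 195 in IR. It was at 200.1, 189 and 181 FPKM in Ab_IR and 150.3, 147 and 144 in L_IR. Ctrl overlapped every other group, and L_IR lay below IR and Ab_IR in every library. IR against Ctrl gave 0.44 ± 0.299 (adjusted p = 0.277), and 0.08 without Ctrl replicate 1. Txn1 fell in L_IR against IR by 0.37 on the log2 scale (SE 0.0324; adjusted p = 6.63e-05), and was 0.73 (adjusted p = 1.31e-04) in the other direction with the Nppa split as a term. For Txn1 (1051 bases) Ctrl replicate 1 differed from the mean of the other Ctrl libraries by -1.10 on the log2 scale. That difference was -1.03 for the longer Sod1 (3970 bases) and -0.345 for Gpx1 (1441 bases).

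Txnrd1, the selenoprotein that restores thioredoxin (chr10:82833951-82897712, plus strand), was at 12.6, 15.8 and 15.85 FPKM in Ctrl and 35.6, 35.9 and 35.1 in IR. It was at 16.5, 17.0 and 16.4 FPKM in Ab_IR and 21.5, 20.05 and 20.7 in L_IR. No groups overlapped, and the order was Ctrl, Ab_IR, L_IR and IR. The log2 fold change of IR against Ctrl was 1.22 ± 0.096 (adjusted p = 2.21e-04), and 1.12 without Ctrl replicate 1. Txnrd1 was lower than in IR by -1.05 ± 0.0328 in Ab_IR (adjusted p = 4.03e-07) and by -0.75 ± 0.0316 in L_IR (adjusted p = 2.13e-06). These calls too held under all 18 alternatives, at -0.74 in Ab_IR and -0.44 in L_IR with the Nppa split as a term.

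The genes most like Txnrd1 over the 12 libraries were Igkv4-62, Gadd45b and Xbp1, with a Pearson's r of 0.992, 0.990 and 0.989. Xbp1, a transcription factor of the unfolded protein response and of plasma cells, averaged 77.1 FPKM for Ctrl, 200.4 for IR, 95.7 for Ab_IR and 108 for L_IR. Igkv4-62, an immunoglobulin light chain segment, had means of 11.3, 89.2, 15.4 and 22.5 FPKM in the same order. The 7 plasma cell markers, none at 0, summed to 632 to 744 FPKM for Ctrl libraries, 991 to 1014 for IR, 1084 to 1173 for Ab_IR and 1466 to 1491 for L_IR. Of these 7, 6 were higher in IR than in Ctrl, beside 17.5% of all genes. In Ab_IR, 3 were higher than in IR and 4 lower (Mzb1, Xbp1, Prdm1 and Irf4), beside 39.4% and 29.4%. In L_IR, 5 were higher than in IR and 1 lower (Xbp1), beside 40.8% and 26%. The part of plasma cell RNA in the Txnrd1 difference was not tested.

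Of the 10 genes, 9 had promoter windows in the RefSeq table (GRCm38.p6, 250 bases before to 50 after a start), 11 windows in all with 3 for Txnrd1. Gsr had none. The core of the antioxidant response element, which NRF2 binds and which was searched as TGACNNNGC on both strands, was held by 3 of these 11 windows, beside 12.4% of all 32851 windows. The 3 matches, each the reverse complement in capitals with 9 flanking bases in lower case, on the plus strand, are shown in full because they share the searched pattern and differ at its N positions.
Txnrd1, chr10:82859105-82859131: tggatttttGCTTTGTCAttctgacac
Prdx1, chr4:116685457-116685483: agggaaagcGCTGAGTCAtcccccgta
Sod1, chr16:90220697-90220723: ccaaggtggGCGTGGTCAgactcaggc
The Txnrd1 match lies in the second of its 3 windows (chr10:82858956-82859255), inside the gene and downstream of its first base. Counted from the start that a window is built on, the matches lie at -92 to -84 in Txnrd1, -133 to -125 in Prdx1 and -56 to -48 in Sod1. The FOXO core TGTTTAC and the E-box CACGTG were in 0 of 11 windows, beside 3.65% and 7.15% of all windows. A match is a description of letters and not of a bound site.

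**Figure D3:**
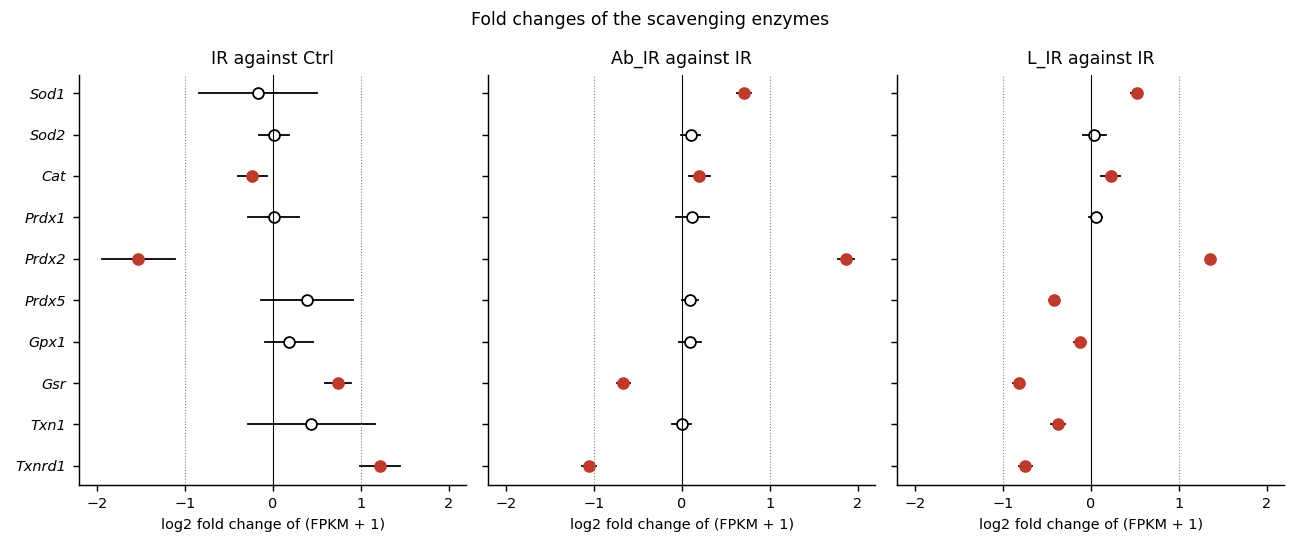
Log2 fold change of FPKM + 1 (x axis) of each transcript (y axis) in IR against Ctrl, Ab_IR against IR and L_IR against IR, with the 95% interval as a line, filled points for an adjusted p under 0.05 and dotted lines at 1 log2 unit. Prdx2 lies at -1.53, 1.87 and 1.36 and Txnrd1 at 1.22, -1.05 and -0.75, and intervals are widest against Ctrl.

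Ab_IR and L_IR were each compared with IR to see how far the irradiated profile differed in those groups. Both comparisons share the 3 IR libraries, so their values are given side by side and are not independent. Ab_IR differed from IR in 5 of 10 transcripts, beside 68.7% of 12067 genes, and in 2 of 10 past the fold threshold, beside 7.57%. The 5 were 3 higher, beside 39.4% of genes, and 2 lower, beside 29.4%, and 7 of 10 did not overlap, beside 73%. L_IR differed from IR in 8 of 10, beside 66.8% of 12163 genes, and in 1 of 10 past the fold threshold, beside 6.22%. The 8 were 3 higher, beside 40.8% of genes, and 5 lower, beside 26%, and 8 of 10 did not overlap, beside 71.2%. When all 12 libraries shared 1 estimate of the spread, 4 of 10 were called in L_IR against IR, beside 46.7% of all genes. Sod1, Cat and Prdx2 were higher and Gsr and Txnrd1 lower than in IR in both groups, and Prdx5, Gpx1 and Txn1 were lower in L_IR, though higher there with the Nppa split as a term.

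Set against each other, Ab_IR and L_IR differed in 7 of 10 transcripts by the adjusted p, beside 38% of 12194 genes, and in 0 of 10 past the fold threshold, beside 0.533%. Of the 7, 6 were higher in Ab_IR, beside 18.2% of genes, and 1 lower, beside 19.8%, and the libraries of 7 of 10 did not overlap, beside 51.9%. Sod1 (log2 fold change 0.19), Prdx2 (0.51), Prdx5 (0.51), Gpx1 (0.21), Gsr (0.16) and Txn1 (0.37) were higher in Ab_IR. Over 18 alternatives the call held in 18 for Prdx2, 17 for Prdx5, 17 for Txn1, 16 for Sod1 (lowest log2 fold change 0.05), 14 for Gsr (lowest 0.01) and 9 for Gpx1 (lowest 0.07). With all 12 libraries in one fit, 3 of the 7 calls were left, Prdx2, Gsr and Txnrd1, beside 19.2% of all genes. Txnrd1 was lower in Ab_IR by a log2 fold change of -0.30 ± 0.04 (adjusted p = 0.0014). Prdx2 averaged 149 ± 5.23 FPKM in Ab_IR (SD, n = 3) and 105 ± 0.565 in L_IR, beside 119.7 in Ctrl, and Txnrd1 averaged 16.6 ± 0.280 and 20.8 ± 0.741, beside 14.8. Immunoglobulin genes took 21.9% to 22.6% of the summed FPKM in L_IR and 13.5% to 14.3% in Ab_IR, and with them left out the median of all genes shifted by -0.12.

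Against Ctrl, limma called 0 of 10 transcripts in Ab_IR, beside 2.1% of 12134 genes, and 0 of 10 had an unadjusted p under 0.05. In L_IR it called 1 of 10, Txnrd1 at 0.47 ± 0.0991 (adjusted p = 0.0356), beside 8.84% of 12251 genes. These counts do not show that the groups were alike, since the 95% intervals against Ctrl were wide, -0.07 to 0.76 for Prdx2 and -0.12 to 1.19 for Sod1 in Ab_IR. Without Ctrl replicate 1, L_IR against Ctrl gave 4 calls beside 20.3% of all genes, Prdx2 (-0.37), Prdx5 (-0.29) and Txn1 (-0.29) lower and Txnrd1 (0.37) higher. The Txnrd1 call was lost without any of the other 5 libraries, with adjusted p between 0.0523 and 0.169. Leaving out Ctrl replicate 1 gave 0 calls in Ab_IR against Ctrl, beside 5.65% of all genes.

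Ratios between transcripts of a library do not depend on any single factor by which it was scaled. Prdx2 over Prdx5 was 0.432 to 0.434 in IR but 1.55 to 1.79 in Ctrl, 1.51 to 1.52 in Ab_IR and 1.51 to 1.53 in L_IR. For this pair IR stood apart in every library and the other groups lay close together. In Prdx2 over Prdx1 IR stood apart too, at 0.596 to 0.62, but Ab_IR (1.84 to 2.37) and L_IR (1.48 to 1.61) did not overlap. The reductase to carrier ratio Txnrd1 over Txn1 was 0.18 to 0.195 in IR but 0.0822 to 0.151 in Ctrl, 0.0825 to 0.0908 in Ab_IR and 0.137 to 0.144 in L_IR. In the glutathione branch, Gsr over Gpx1 was 0.228 to 0.235 in IR but 0.139 to 0.196 in Ctrl, 0.13 to 0.147 in Ab_IR and 0.136 to 0.147 in L_IR. Both reductases were highest relative to their partner in IR, without overlap. Txnrd1 over Gsr was 0.186 to 0.195 in IR and overlapped L_IR (0.188 to 0.204). That ratio was 0.107 to 0.146 in Ctrl and 0.137 to 0.147 in Ab_IR. Sod1 over Sod2 was 2.83 to 5.66 in Ctrl and 3.69 to 4.01 in IR, which overlapped. That overlap rests on Ctrl replicate 1 (2.83), as Ctrl replicates 2 (5.66) and 3 (5.16) were above every IR library. The ratio was 5.64 to 6.02 in Ab_IR and 5.06 to 5.86 in L_IR.

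**Figure D4:**
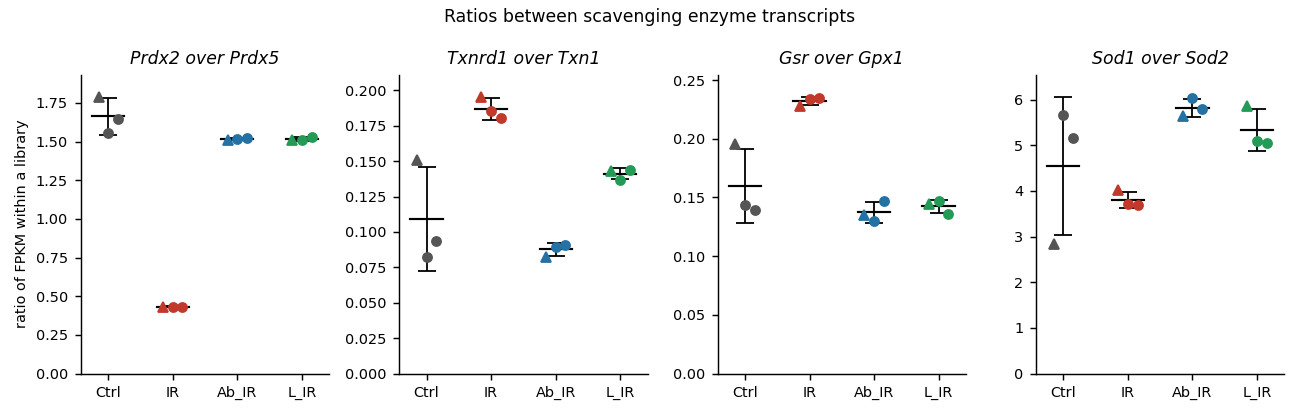
Ratio of FPKM within a library (y axis, from 0) for 4 pairs of transcripts in the 4 groups (x axis), 1 point per library with replicate 1 as a triangle, the mean as a line and the SD as a bar (n = 3). Prdx2 over Prdx5 is 0.432 to 0.434 in IR and at least 1.51 elsewhere, and Txnrd1 over Txn1 and Gsr over Gpx1 are highest in IR.

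The enzymes that feed and surround these transcripts were read from 8 lists of redox genes. The list of superoxide and peroxide sources also holds Mpo and Epx, peroxidases that use hydrogen peroxide. Among its 13 tested genes, 9 were higher in IR than in Ctrl, beside 17.5% of all genes. Epx alone was lower, 1 of 13 beside 25.5%, and 3 genes, Mpo among them, did not pass the test. The median log2 fold change of the list was 0.76, against -0.05 over all genes. Xdh, xanthine dehydrogenase, went from 4.82 to 12.8 FPKM (log2 fold change 1.24) and Ero1l, an oxidase of protein folding in the endoplasmic reticulum, from 37.6 to 81.8 (1.11). The subunits of the phagocyte NADPH oxidase Cybb (0.85), Ncf1 (0.99) and Ncf4 (0.84) were higher. Epx, the eosinophil peroxidase, fell from 582 to 52.5 FPKM, by 3.45 on the log2 scale, and 6 of 6 eosinophil markers, Epx among them, fell past both thresholds. Against IR, 9 of these 13 genes were lower in Ab_IR, beside 29.4% of all genes, and 10 of 13 in L_IR, beside 26%. In each, 1 was higher, Epx by 3.59 in Ab_IR and 2.65 in L_IR, beside 39.4% and 40.8% of all genes. The summed neutrophil and monocyte markers given above, of cells that use the NADPH oxidase, were highest in IR too, though not every marker was, and their part was not tested.

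NADPH supply, on which both reductases depend, had 4 genes higher, 2 lower and 5 not past the test of 11 in IR against Ctrl, beside 17.5% of all genes higher and 25.5% lower. G6pdx, the entry enzyme of the pentose phosphate pathway, rose to 238 FPKM in IR from 90.7 in Ctrl, by 1.39 on the log2 scale (adjusted p = 5.27e-05), and fell from IR by 1.40 in Ab_IR and 1.42 in L_IR. Nadk2, a mitochondrial NAD kinase, was the largest fall among genes past the test, at -0.44. Like Gsr and Txnrd1, G6pdx was called higher in IR than in each of the other 3 groups.

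Other peroxidases and dismutases were tested for 7 of 10 genes, of which 1 rose, 2 fell and 4 did not pass in IR against Ctrl, where 17.5% of all genes rose and 25.5% fell. Gpx3, a secreted glutathione peroxidase, rose from 14.7 to 28.9 FPKM (log2 fold change 1.01, adjusted p = 0.0373) and was lower than in IR by -1.58 in Ab_IR and -1.90 in L_IR. Gpx4, which reduces lipid hydroperoxides, was lower in IR by -0.45 (adjusted p = 0.0447) and higher than in IR by 0.72 in Ab_IR and 0.37 in L_IR. Of 13 thioredoxin and glutaredoxin genes, 3 rose, 3 fell and 7 did not pass, beside the same shares of all genes, with Nxn, nucleoredoxin, the largest rise at 0.75 and Txnrd3 the largest fall at -0.84 among genes past the test.

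Glutathione synthesis and transfer had 2 higher, 5 lower and 4 not past the test of 11 genes in IR against Ctrl, beside 17.5% of all genes higher and 25.5% lower. Mgst3, a microsomal glutathione transferase, fell from 31.2 to 7.06 FPKM (-1.95) and was higher than in IR by 2.08 in Ab_IR and 1.41 in L_IR. Gsta4, which conjugates a lipid peroxidation product, fell from 4.15 to 0.597 FPKM (-1.68), and Gstp1 was higher in Ab_IR than in IR by 1.03. Of 14 genes of NRF2 and its other targets, 4 rose, 4 fell and 6 did not pass, beside the same shares. Blvrb, biliverdin reductase B, fell from 46.3 to 7.33 FPKM (-2.50), Nqo1, a quinone reductase, from 3.29 to 1.33 (-0.88), and Osgin1 rose from 1.32 to 3.69 (1.04). Nfe2l2, which encodes NRF2 and was named after its value was seen, changed by -0.05 (adjusted p = 0.593).

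Among 16 genes of selenoprotein synthesis and other selenoproteins, which share the selenium supply of Gpx1 and Txnrd1, 2 rose, 4 fell and 10 did not pass in IR against Ctrl, beside 17.5% of all genes higher and 25.5% lower. Sephs2, which makes the selenium donor, was the largest rise at 0.37 and Selenoo the largest fall at -0.57 among genes past the test. Of 7 FOXO and sestrin genes tested, 0 rose, 4 fell and 3 did not pass, beside the same shares. Sesn1, a stress-induced regulator, fell from 7.84 to 3.17 FPKM (-1.08). In L_IR against IR 8 of 8 of that list were higher, beside 40.8% of all genes, and in Ab_IR 6 of 7, beside 39.4%.

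**Figure D5:**
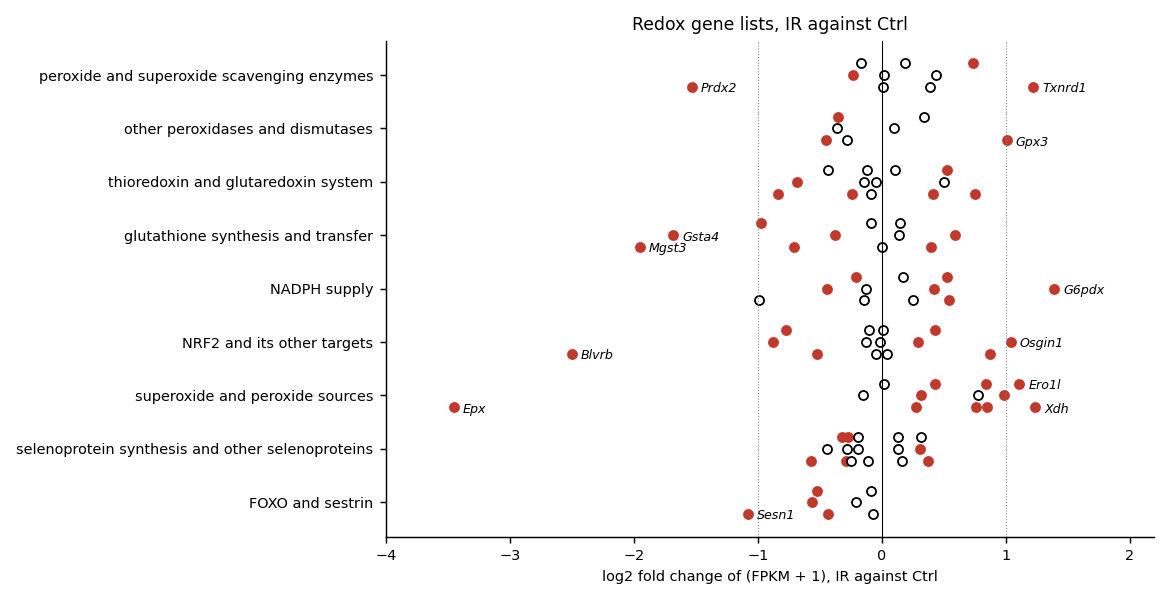
Log2 fold change of FPKM + 1 in IR against Ctrl (x axis) of each tested gene in 9 lists (y axis), filled for an adjusted p under 0.05, with names where the absolute change is above 1 as well (dotted lines). The list of superoxide and peroxide sources lies mostly to the right, with the peroxidase Epx at -3.45. The scavenging enzymes lie on both sides, from Prdx2 at -1.53 to Txnrd1 at 1.22.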

How the data were processed

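RNA was sequenced from sorted cells of 12 bone marrow samples in 4 groups of 3, grouped by title. Per the labels, RNA was extracted with an RNeasy Micro kit and libraries were made with a stranded TruSeq mRNA kit. The submitters' processing notes name fastp, HISAT2, StringTie and the builds GRCm38 and mm10, whereas the study's methods name RSEM and DESeq2. The annotation and the use of strand in counting are not given in the sources used here. The deposited tables hold FPKM per gene as the authors computed them, 1 table per library, 31340 rows and 31272 gene names. They carry no counts, so the authors' count test could not be used and depth is unknown.

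Each comparison was fitted to its own 2 groups with limma 3.58.1 (R 4.3.3; lmFit, then eBayes with its trend option), on log2(FPKM + 1). Genes entered if 3 or more of the fitted libraries reached 1 FPKM, and p-values were adjusted over all of them by Benjamini-Hochberg with a threshold of 0.05. All 10 members passed that filter. All p-values in the text come from limma, from these fits or from the alternative named beside the value. Log2 fold changes are on the log2(FPKM + 1) scale, whereas a value given as N-fold is a ratio of mean FPKM. In all, 6 comparisons were made. Positions come from GENCODE M21 (GRCm38). Promoter windows come from RefSeq. From the 8 redox lists, the genes named were those past both thresholds in IR against Ctrl, Ab_IR against IR or L_IR against IR, and otherwise the largest rise and fall in IR against Ctrl. The rule for members used gene names only, but members, lists and markers (10 lists) were proposed with earlier results of these data known. Scripts were tested on simulated data. Python 3.11.15 and matplotlib 3.10.9 drew the figures.

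Alternatives for the values were a pseudocount of 0.1, quantile normalization, median ratio scaling, scaling to a fixed sum and dropping immunoglobulin genes. Alternatives for the genes were no filter or a mean of 10 FPKM or more. Alternatives for the fit were no trend, a single fit of all 12 libraries, the Nppa split as a term, a replicate block, and each library left out. Taking out a lowess trend on gene length was chosen after seeing the data.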

Additional observations from a re-analysis of the deposited data

Results flagged for a closer look

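Prdx5 and Gpx1 were flagged because their log2 fold changes against IR had opposite signs in Ab_IR and L_IR. Neither change in Ab_IR passed the test. Prdx2 differed as much between those groups (0.51), with the same sign against IR in both. Prdx5 was at 0.09 on the log2 scale in Ab_IR against IR and at -0.42 in L_IR against IR, and the limma test of Ab_IR against L_IR gave a difference of 0.51 (adjusted p = 1.54e-04). Gpx1 was at 0.09 and -0.12, a difference of 0.21 (adjusted p = 0.0179). The Gpx1 difference passed under 9 of 18 alternatives and the Prdx5 difference under 17 of 18. Groups of 3 libraries are too small for a test of single outlying libraries.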

How the results depend on the processing

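Of 1074 recomputed fold changes of single transcripts, 940 kept their direction and side of the threshold, 42 lost the threshold, 30 gained it and 62 reversed. Prdx2, Gsr and Txnrd1 held their calls in IR against Ctrl, Ab_IR against IR and L_IR against IR under all 18 alternatives. Sod2 could not be fitted with a mean of at least 10 FPKM. Causes were not tested, and the unknown depth sets no counting limit.

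Same-numbered libraries deviated together with r of -0.269 to 0.208, and in 14 of 36 library and group pairs the best match had the same number, so the replicate numbers were not taken as pairs. With the replicate block, 3 of 10 transcripts were called in IR against Ctrl beside 35.6% of all genes, 5 in Ab_IR against IR beside 67.3%, 8 in L_IR against IR beside 64%, and 5 in Ab_IR against L_IR beside 28.3%. The block left 0 calls in Ab_IR against Ctrl beside 0.964% and 0 in L_IR against Ctrl beside 4.29%.

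With the Nppa split as a term, 8 were called in Ab_IR against IR beside 62.5% of all genes, 7 in Ab_IR against Ctrl beside 58%, and 7 in L_IR against Ctrl beside 53.7%. Past the fold threshold it gave 2 in L_IR against IR, beside 1662 of 12699 genes. It gave 2 in Ab_IR against Ctrl, beside 860 of 12699, and 1 in L_IR against Ctrl, beside 916 of 12699. In Ab_IR against IR, 2079 of 12699 genes passed both thresholds. There Sod1 (1.74), Prdx2 (2.49) and Txn1 (1.10) were above 1, and Txnrd1 was at -0.74. All 12 libraries in one fit gave 4 calls in L_IR against IR beside 46.7% of all genes and 3 in Ab_IR against L_IR beside 19.2%. In L_IR against Ctrl, no filter gave 0 beside 2.47%, and the length trend 0 beside 10.3%. Leaving out a library there gave 0 to 4, beside 3.29% to 20.3% of all genes.

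Reversed log2 fold changes in IR against Ctrl were, for Prdx1, -0.09 with quantile normalization, -0.01 with median ratio scaling, -0.03 with a fixed sum and -0.08 with the split, and for Sod2 -0.00211 with median ratio scaling, -0.02 with a fixed sum and -0.02 with the split. Leaving out a library gave -0.52 to 0.03 for Sod1, -0.02 to 0.05 for Sod2 and -0.08 to 0.15 for Prdx1.

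In Ab_IR against IR, quantile normalization gave -0.08 for Gpx1 and 0.02 for Txn1, a fixed sum -0.004 for Prdx5 and -5.38e-04 for Gpx1, the split 1.10 for Txn1, the length trend -0.01 for Prdx1 and -0.09 for both Prdx5 and Gpx1, and leaving out a library -0.04 to 0.03 for Txn1. In L_IR against IR, Sod2 was at -0.06 with quantile normalization and -0.04 with a fixed sum, Prdx1 at -0.04 with a fixed sum and -0.02 with the length trend, and the split gave 0.35 for Prdx5, 0.22 for Gpx1 and 0.73 for Txn1.

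In Ab_IR against L_IR, leaving out immunoglobulin genes gave -0.07 for Sod2 and -0.08 for Prdx1, the length trend -0.00211 for Prdx1, and leaving out a library -0.03 to 0.14 for Prdx1. In Ab_IR against Ctrl, Gsr was at -0.11 with quantile normalization, -0.06 with a fixed sum and -0.01 with the split, Prdx1 at -0.0018 with a fixed sum and Cat at 0.03 without immunoglobulin genes.

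In L_IR against Ctrl, quantile normalization gave -0.08 for Gpx1 and -0.14 for Txn1, a fixed sum -0.06 for Sod2, -0.07 for Prdx1, -0.07 for Gpx1 and -0.06 for Txn1, and the split 0.25 for Prdx2 and 0.48 for Prdx5. Without immunoglobulin genes Cat was at 0.21, Prdx2 at 0.05, Prdx5 at 0.18 and Gsr at 0.13, and the length trend gave 0.01 for Cat. Leaving out a library gave -8.09e-04 to 0.54 for Sod1, -0.03 to 0.01 for Cat, -0.02 to 0.20 for Prdx1, -0.29 to 0.14 for Prdx5, -0.05 to 0.13 for Gpx1 and -0.29 to 0.30 for Txn1. A fixed sum moved the median of all genes by -0.13 in Ab_IR and L_IR against Ctrl, and leaving out immunoglobulin genes by 0.18 in L_IR against Ctrl.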

Other observations

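Summed levels of the marker lists not yet described were low throughout. Macrophage markers summed to 64.2 to 72.8 FPKM for Ctrl, with Marco listed at 0, and to 44.8 to 51.6 for IR, 69.4 to 77.1 for Ab_IR and 62.5 to 70.2 for L_IR. B cell markers summed to 28.0 to 32.4, 24.3 to 24.9, 41.9 to 42.1 and 44.9 to 46.4 FPKM in the same order of groups. T cell markers summed to 12.4 to 14.6, 6.62 to 8.56, 14.8 to 16.8 and 23.6 to 24.7 FPKM. HSC markers summed to 61.3 to 69.1, 64.6 to 72.0, 59.55 to 65.7 and 69.15 to 69.7 FPKM, and IR overlapped each other group. The part of any of these cells in the differences of the scavenging enzymes was not tested.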
